A study of Mus musculus with 11 samples.

Results

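The array labelled NRAS_MEL was set against the array labelled D6_MEL, 2 of the 11 arrays of a mouse series titled for RAS isoforms in melanocytes. Each array carried RNA of its sample, labelled with Cy3, and a mouse embryo reference RNA, labelled with Cy5, so a level below is own RNA over reference on the log2 scale, and a difference is the NRAS_MEL level minus the D6_MEL level. A gene entered when at least 1 probe that names it alone had a value on both arrays, which gave 7069 of the 7114 genes with a value on any array. The descriptions give both samples the code C3, and NRAS_MEL the word Nras after it; from the series title, MEL was taken to mean melanocyte. The sources used here do not say whether NRAS_MEL is 1 clone, which Nras allele or promoter it carries, how long it was cultured or what D6 means. Each side had 1 array, so there is no replicate, no error on a single difference and no test: every statement on higher or lower is about these 2 arrays, not about the lines.

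Melanocytes are pigment cells that arise from the neural crest and make melanin in lysosome-related organelles called melanosomes. NRAS is a small GTPase that switches on the RAF, MEK and ERK kinases and the PI3 kinase pathway when it binds GTP, and mutations that hold it in this state are frequent in melanoma. ERK signalling is known to raise immediate early genes, its own feedback inhibitors such as ERK phosphatases, cyclin D and genes of invasion.

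The direction of the deposited ratio is not stated, and all signs below rest on a choice. In the sample titles the reference comes second, but in the deposited values the array farthest from the median of the 11 arrays lay below it for all 4 organ marker lists. The distance was -7.63 for 4 liver genes, in the array labelled Lung, and -4.55 for 2 heart genes, in the array labelled Melan A. It was -3.72 for 5 kidney genes, in the array labelled Kidney, and -6.32 for 5 lung genes, in the array labelled Liver. Only the kidney list met its own label, so the direction rests on the markers and not on the labels. Organ genes are high in their own tissue, so the ratio was read as reference over own RNA and each sign was turned. Should the opposite be true, every "higher" below would read "lower". Markers went against the labels of 5 arrays (Heart, Liver, Lung, Melan A and VA_MEF), which are named by label only. Across genes, which are not independent replicates, NRAS_MEL had a Pearson r of 0.792 with D6_MEL and of 0.779 with the array labelled Heart, while D6_MEL had an r of 0.917 with the array labelled Heart.

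The label could be checked only in part. Values of Tyr, Tyrp1, Dct, Pmel, Mlana, Mitf and Sox10, which define pigment cells, are not given here, so these genes add nothing to the check. Mlph, the linker of melanosomes to their motor, stood at 2.55 in NRAS_MEL and 3.18 in D6_MEL. Kit, the melanocyte growth receptor, stood at -1.17 and -1.09, and Ednrb, the endothelin receptor of the lineage, at -2.41 and -2.79, so both were below the embryo reference in both arrays. Nras itself, with 3 probes, stood at 0.10 in NRAS_MEL and 0.18 in D6_MEL. Its 3 probes disagreed, with differences from -0.92 to 0.91, and a mouse probe need not detect an introduced gene.

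Some gene groups whose start regions hold known response elements can be read against their sequence. Interferon-induced genes are switched on by transcription factors that bind an interferon response element, and metallothionein genes by MTF1, a zinc-sensing factor that binds metal response elements. The 250 bases before each start in RefSeq's annotation of GRCm38.p6 were searched on both strands. The interferon motif was spelled GAAA, any 2 bases, then GAAA, and 2.98% of 32851 windows of that length held it. The metal motif was spelled TGCACNC or TGCGCNC; 21.4% of the windows held at least 1 match and 1.26% at least 3. Of 19 interferon genes measured, 17 had a window, 22 windows in all, and 6 genes held the motif. A match is a description of the letters, not a site shown to be used, and a window without one says nothing about the factor. The stretches are shown 5′ to 3′ on the gene's strand, with the matches in capitals. Of the 6 interferon genes with the motif 4 were at least 2-fold higher in NRAS_MEL and 2, Oas1a and Igtp, were not; of the 11 with a window and no match 2 were, and so were the 2 with no window. Over all genes the share was 2.43%. Both metallothionein genes were 2-fold higher.
Tgtp1, chr11:48992289-48992348, minus strand: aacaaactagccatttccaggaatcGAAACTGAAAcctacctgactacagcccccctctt
Bst2, chr8:71537562-71537627, minus strand: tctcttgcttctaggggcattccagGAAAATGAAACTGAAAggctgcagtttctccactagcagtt
Stat2, chr10:128270251-128270310, plus strand: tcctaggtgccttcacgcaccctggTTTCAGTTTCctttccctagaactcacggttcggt
Ifitm2, chr7:140955973-140956032, minus strand: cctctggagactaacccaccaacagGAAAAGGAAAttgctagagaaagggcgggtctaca
Igtp, chr11:58199497-58199555, plus strand: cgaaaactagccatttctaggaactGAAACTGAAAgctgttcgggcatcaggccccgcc
Oas1a, chr5:120907526-120907570, minus strand: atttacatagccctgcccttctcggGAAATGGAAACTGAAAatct
Mt2, chr8:94172370-94172599, plus strand: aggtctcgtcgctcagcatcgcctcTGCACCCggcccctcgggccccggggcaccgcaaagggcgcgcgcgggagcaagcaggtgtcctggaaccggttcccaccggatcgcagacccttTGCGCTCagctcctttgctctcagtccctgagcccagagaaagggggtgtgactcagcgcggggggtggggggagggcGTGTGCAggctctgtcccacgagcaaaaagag
Mt1, chr8:94179041-94179088, plus strand: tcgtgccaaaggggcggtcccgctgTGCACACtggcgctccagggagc

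Over all 7069 genes the differences had a median of 0.02 and an SD of 0.566, and the 5th and 95th percentiles were -0.95 and 0.81. At least 2-fold apart were 482 genes (6.82%), with 172 higher (2.43%) and 310 lower (4.39%) in NRAS_MEL. The balance turned in the far tail: 23 genes were at least 4-fold higher and 21 at least 4-fold lower, and 6 against 1 passed 8-fold. The difference was above 0 in 51.5% of genes. Genes 2-fold higher had a median level of 0.61 in NRAS_MEL and -0.73 in D6_MEL, and those 2-fold lower of -0.81 and 0.55. Among the 172 higher genes NRAS_MEL was the highest of the 11 arrays in 52, and D6_MEL the lowest in 33. Among the 310 lower genes NRAS_MEL was the lowest array in 124, and D6_MEL the highest in 92.

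**Figure D1:**
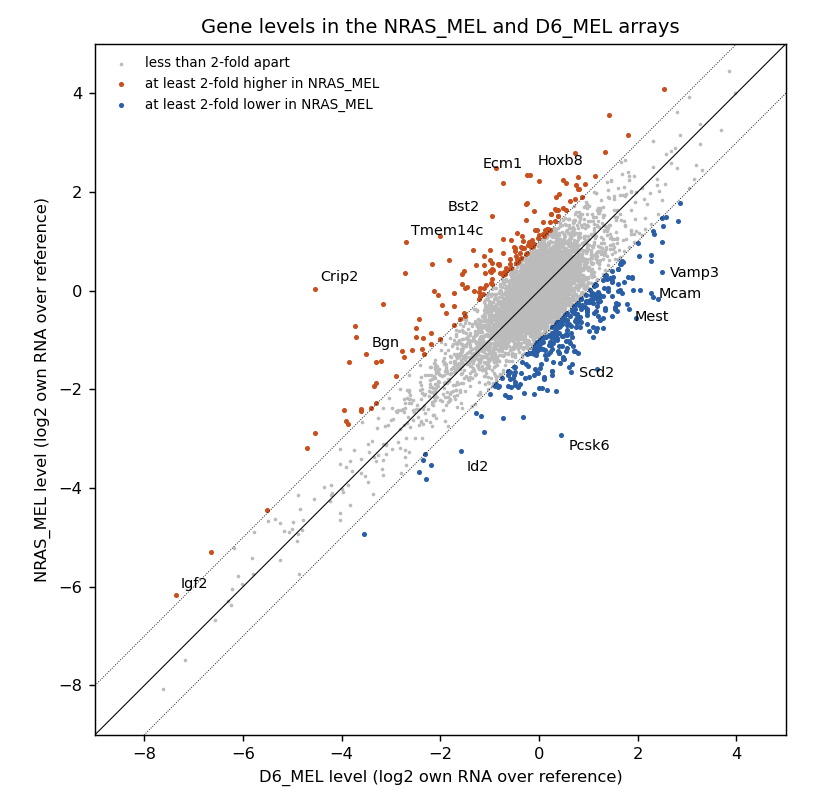
Levels of 7069 genes (log2 own RNA over reference) in D6_MEL, on the x axis, and NRAS_MEL, on the y axis, 1 point per gene; the solid line marks equal levels and the dotted lines a 2-fold difference. The 172 genes above the upper dotted line are orange and the 310 below the lower one are blue; Crip2 lies 4.58 above equality and Pcsk6 3.37 below it.

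Probes give the only repeat measure within these arrays. The median SD between probes of a gene, over genes with at least 2, was 0.324 on the scale of the difference. In the 1317 genes with exactly 2 probes, the 2 differences had a Pearson r of 0.276 across genes, which describes the arrays only. Of the 172 higher genes 159 rested on 1 probe. Among genes with 1 probe 3.02% were 2-fold higher and 4.48% lower, while among the 1796 with at least 2 the shares were 0.724% and 4.12%. Of those 1796, 13 had a mean 2-fold higher, and in 6 (0.334%) every probe was; 74 had a mean 2-fold lower, and in 23 (1.28%) every probe was. No probe was below 0 in the 13, and 6 of the 74 had a probe above 0.

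The 6 higher genes carried by every probe were Morc1, Nupr1, Gstm2, Hbb-y, Igf2 and Myc. Nupr1, a stress-induced chromatin protein, stood at 1.78 in NRAS_MEL and -0.23 in D6_MEL, and its 2 probes gave 1.92 and 2.10. Morc1, a silencer of transposons in germ cells, stood at 2.22 and -0.01, and its probes gave 1.22 and 3.23. Gstm2, a glutathione transferase, stood at -0.29 and -1.97, with probes at 1.16 and 2.20. These 3 had the largest means of the 6. Hbb-y, an embryonic beta globin, stood at -1.93 and -3.35, with 4 probes from 1.13 to 1.83, and at -1.96 in the array labelled Heart. Igf2, the imprinted fetal growth factor, stood at -6.17 and -7.36, far below the embryo reference on both arrays. Myc, the growth-promoting transcription factor, stood at 0.16 in NRAS_MEL and -0.98 in D6_MEL, and its probes gave 1.0 and 1.29.

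Among the 23 lower genes carried by every probe, Otud6b, a deubiquitinase, had the largest mean, -1.99, from levels of -0.41 in NRAS_MEL and 1.58 in D6_MEL. Pank3, a pantothenate kinase of coenzyme A synthesis, stood at -0.75 and 1.17, with 3 probes from -2.62 to -1.14. Azin1, which protects ornithine decarboxylase from its antizyme, stood at 0.02 and 1.91, with 3 probes from -2.46 to -1.15. NRAS_MEL had the lowest Pank3 level of the 11 arrays, and D6_MEL the highest Azin1 level. Id2, an inhibitor of basic helix-loop-helix factors, stood at -3.26 in NRAS_MEL and -1.57 in D6_MEL, with probes at -1.81 and -1.56. Cyb5b, an outer mitochondrial membrane cytochrome, differed by -1.70, Arap2, a GTPase-activating protein, by -1.59, and the lysosomal sulfatase Arsb by -1.43. The cyclin relative Ccni differed by -1.37, the single-strand binding protein Rpa1 by -1.33 and the ubiquitin ligase Rnf14, with 3 probes from -1.43 to -1.24, by -1.32. Nol4l, Atf7ip, Zkscan1, Obi1 and Rcbtb1 followed the same pattern, between -1.53 and -1.31.

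**Figure D2:**
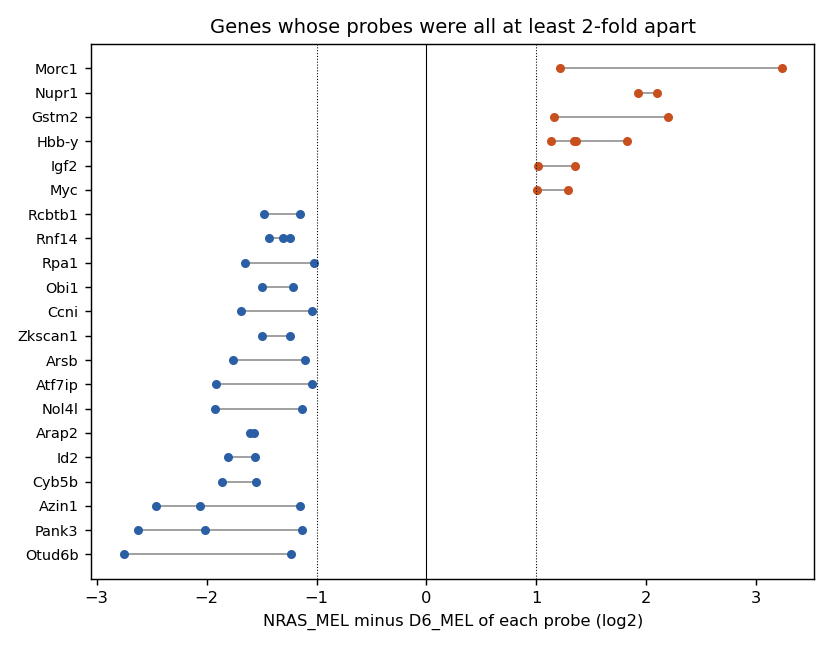
NRAS_MEL minus D6_MEL (log2, x axis) of each probe, 1 point per probe, for the 6 genes whose every probe was at least 2-fold higher (orange) and the 15 largest of the 23 whose every probe was at least 2-fold lower (blue); dotted lines mark 2-fold. The probes of Nupr1 (1.92 and 2.10) and Arap2 lie close together, and those of Morc1 (1.22 and 3.23) and Pank3 far apart.

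The Ras family itself differed little between the arrays. Of 9 members measured, 0 were 2-fold higher (beside 2.43% of all genes) and 1 was 2-fold lower (11.1%, beside 4.39%). The median difference was -0.09. The lower one was Rap2b, a Rap GTPase of adhesion, at 1.32 in NRAS_MEL and 2.51 in D6_MEL. Ralb, a GTPase downstream of RAS, stood at 0.18 and -0.52, and Rras2, with 2 probes, at 0.11 and 0.42. Of 17 regulators and processing enzymes of RAS, 0 were 2-fold higher and 1 was lower (5.88%, beside 4.39% of all genes). It was Icmt, which methylates the RAS tail, at 0.26 and 1.43, with probes at -1.33 and -1.0. In the MAP kinase cascade 0 of 17 genes were 2-fold apart, with Rps6ka3, an ERK-activated kinase, lowest at -1.0. In the PI3 kinase and mTOR list 0 of 16 were, with the insulin receptor substrate Irs1 lowest at -0.96.

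Known targets of the MAP kinase pathway split. Of 25 measured, 3 were 2-fold higher (beside 2.43% of all genes) and 0 lower (beside 4.39%). Above 0 lay 18, against 51.5% of all genes, and the median difference was 0.23. Of the 22 left without the 2 table blocks described at the end, 3 were 2-fold higher and 1 was lower. Plaur, the urokinase receptor, stood at 2.30 in NRAS_MEL and 0.78 in D6_MEL, and NRAS_MEL was its highest array of the 11. Egr1, an immediate early factor, stood at -0.50 and -1.51, and Myc is given above. Below 2-fold were Fosl1, an AP-1 subunit, at 2.61 and 1.66, Hmga2, an architectural chromatin protein, at 3.92 and 3.03 with 3 probes from 0.36 to 1.33, and cyclin D1, Ccnd1, at 4.45 and 3.85. These 3 stood well above the reference on both arrays. On the other side were Etv5, an ETS factor, at 0.68 and 1.64, Dusp7, an ERK phosphatase, at 0.80 and 1.72, Ets1 at a difference of -0.89 and the inhibitor Spry4 at 0.17 and 0.85. The feedback inhibitors Dusp7, Spry4, Spred1 and Dusp9 were lower in NRAS_MEL, by 0.36 to 0.92 on the log2 scale, while Spred2 differed by 0.20.

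Of the lists with at least 3 genes measured, interferon-induced genes had the largest share of 2-fold higher members. Of 19 measured, 8 were 2-fold higher (42.1%, beside 2.43% of all genes) and 0 lower. Above 0 lay 15, and the median difference was 0.51 beside 0.02 over all genes. Each of the 8 rested on 1 probe, and among all genes with 1 probe 3.02% were 2-fold higher. Without the 2 table blocks described at the end, 6 of 15 were 2-fold higher and 0 lower. Tgtp1, an interferon-inducible GTPase, stood at 2.18 in NRAS_MEL and -0.73 in D6_MEL; it has a near-identical neighbour, Tgtp2, so its probe may read both. Bst2, tetherin, which holds budding virus at the cell surface, stood at 1.52 and -0.95. Ifitm3, a membrane protein that blocks virus entry, stood at 0.83 and -1.33, and its close paralog Ifitm2 at -0.18 and -1.21. Each of these 4 was above its D6_MEL level in HRAS_MEL as well, at 1.11, 2.24, 1.25 and 0.38. For Tgtp1, Ifitm3 and Ifitm2 this was not particular to the RAS lines. In 3T3 they stood at 0.33, 1.35 and 0.01, while Bst2 was below D6_MEL at -1.46. In VA_475 Ifitm3 and Ifitm2 stood at 2.01 and 0.47 and Bst2 at -1.98. D6_MEL had the lowest Ifitm3 level of the 11 arrays.

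The other 2-fold members included the signalling pair Stat2 and Socs3. Stat2, a signal transducer of interferon receptors, stood at 0.46 in NRAS_MEL and -0.67 in D6_MEL. Socs3, a feedback inhibitor of JAK kinases, stood at 1.64 and 0.55. Ly6e, a lipid-anchored surface protein, stood at -0.85 and -2.18, and Ifi27 at 1.23 and 0.22. Several classical members did not differ so. Oas1a, an activator of RNA degradation, was lower, at -0.68 in NRAS_MEL and 0.26 in D6_MEL, Ddx58, the RNA sensor, differed by -0.40, and Irf1 by -0.00. Igtp, a GTPase of the Tgtp1 kind with the same letters GAAACTGAAA before its start, stood at -1.12 and -1.22. In HRAS_MEL Igtp stood at 0.24.

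**Figure D3:**
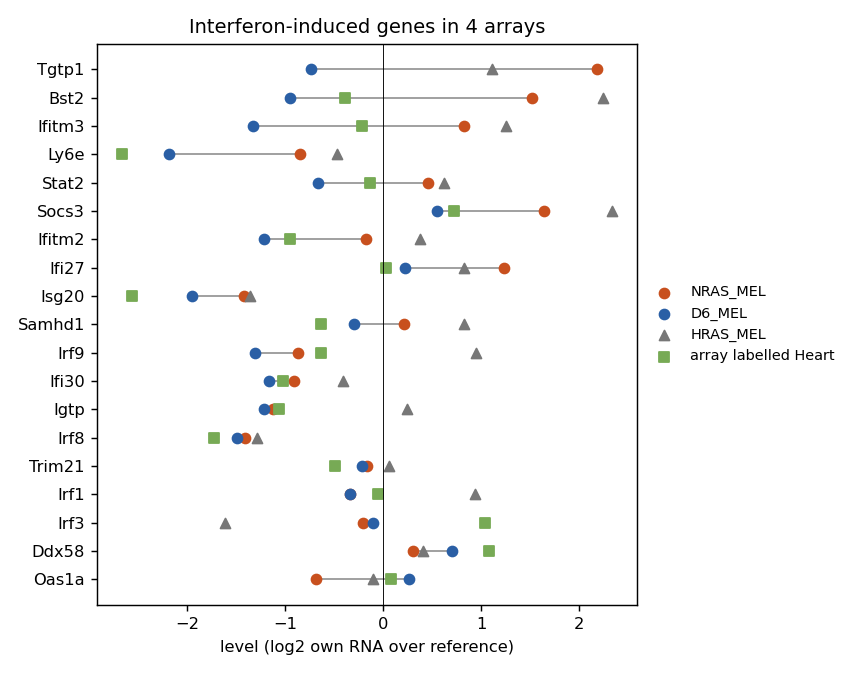
Levels (log2 own RNA over reference, x axis) of the 19 interferon-induced genes in NRAS_MEL, D6_MEL, HRAS_MEL and the array labelled Heart, 1 mark per array, with a line joining NRAS_MEL and D6_MEL; Tgtp1 has no value in the array labelled Heart. The line is longest for Tgtp1 (2.18 against -0.73) and runs the other way for Oas1a (-0.68 against 0.26).

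Genes of antigen presentation on MHC class I lay on both sides. Of 9, 1 was 2-fold higher and 2 lower, with a median of -0.30, which was 0.10 against the array labelled Heart and 0.06 without 2 blocks of the table described at the end. Tap2, a peptide transporter, stood at 0.53 in NRAS_MEL and -0.58 in D6_MEL, and Tapbp, tapasin, a chaperone that bridges the transporter and class I, at -0.08 and -1.06, under 2-fold. B2m, the light chain of class I, stood at -0.89 and 0.19, and the chaperone calnexin, Canx, at -0.84 and 0.36. So Tap2 and the light chain lay on opposite sides. Nfkbia, an inhibitor and target of NF-kappa B, stood at 0.75 and -0.27, and the other 12 genes of that pathway were less than 2-fold apart. Without those table blocks, 0 of 11 genes of that pathway were 2-fold higher. Among 25 cytokine and receptor genes Mif stood at -0.02 in NRAS_MEL and -1.23 in D6_MEL. The chemokine Cxcl12 stood at -0.86 and 0.65, and Il6st, the shared receptor chain of the interleukin-6 family, at -0.51 and 1.18, though its 2 probes gave -2.87 and -0.52.

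Metallothioneins, small proteins that bind zinc and copper, were both higher. Mt2 stood at 0.55 in NRAS_MEL and -2.16 in D6_MEL, and Mt1 at -0.46 and -1.88. The 2 genes are alike in sequence and their probes may cross-read. Mt2 stood at -1.08 and Mt1 at -0.26 in the array labelled Heart, so Mt1 was 0.19 lower in NRAS_MEL than there. The other 25 genes of metal handling were less than 2-fold apart. Among 63 glutathione and antioxidant genes, 4 were 2-fold higher (6.35%, beside 2.43% of all genes) and 1 lower (1.59%, beside 4.39%), with a median of 0.07. The higher ones were Gstm2 (above), Gsto1 at 0.06 and -1.51, Cyp1b1 at 0.54 and -0.82, and Mgst1 at -2.39 and -3.40. Gstm1 and Gstm7, relatives of Gstm2, differed by 0.95 and 0.90, and these mu-class genes are alike enough to share probe signal. The thioredoxin inhibitor Txnip was lower, at -0.93 and 0.13.

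Nuclear genes of the respiratory chain were mostly higher in NRAS_MEL by less than 2-fold. In complex I, the NADH dehydrogenase, 21 of 22 genes lay above 0, against 51.5% of all genes, and the median difference was 0.59, yet 0 were 2-fold apart. The highest was Ndufa12, at 0.47 in NRAS_MEL and -0.52 in D6_MEL, followed by Ndufb5 at -0.14 and -1.04, and the one below 0 was Ndufs1, a core iron-sulfur subunit, at -0.50 and -0.39. In complex IV, cytochrome c oxidase, and its assembly genes, 13 of 13 lay above 0 with a median of 0.48, from Cox6b1 at 0.18 to Cox14 at 0.86. In ATP synthase 13 of 16 did, with a median of 0.45. There Atp5a1, the catalytic-head alpha subunit, was apart at -2.48 and -1.28, while the small membrane subunit Atp5k stood at 0.53 and -0.41. Of the 14 ATP synthase genes left without the 2 table blocks described at the end, 0 were 2-fold lower. Complexes II and III were mixed, with 7 of 12 above 0 and a median of 0.36, or -0.12 over the 5 genes with 2 or more probes. Uqcrc1 stood at -0.37 and -1.31 and its core partner Uqcrc2 at -1.51 and -0.69. The flavoprotein Sdha differed by -0.69, though its probes gave -1.52 and 0.13.

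Both ribosomes lay on the same side as the respiratory chain. Of 74 cytosolic ribosomal proteins 67 lay above 0, with a median of 0.49, but 2 were 2-fold higher (2.7%, near the 2.43% of all genes). Rpl36a stood at 2.07 in NRAS_MEL and 0.82 in D6_MEL, and Rps27 at 1.18 and 0.14. Of 44 mitochondrial ribosomal proteins 39 lay above 0, with a median of 0.27 and the highest, Mrpl2, at 0.88. Ribosomal protein genes have many processed copies in the genome, so their probes may read more than 1 locus. Ribosome biogenesis was split, with a median of 0.21 over 59 genes. Nhp2, of the pseudouridylation complex, stood at 1.07 and -0.01, while the helicase Ddx31 stood at -2.02 and 0.33 and Imp4 at -0.10 and 1.24. With the 2 table blocks described at the end left out, 1 of 46 was 2-fold higher and 0 were lower. Tomm7, a subunit of the outer-membrane import pore, stood at 1.11 in NRAS_MEL and -2.0 in D6_MEL, where it was the lowest of the 11 arrays, and at 0.27 in the array labelled Heart.

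**Figure D4:**
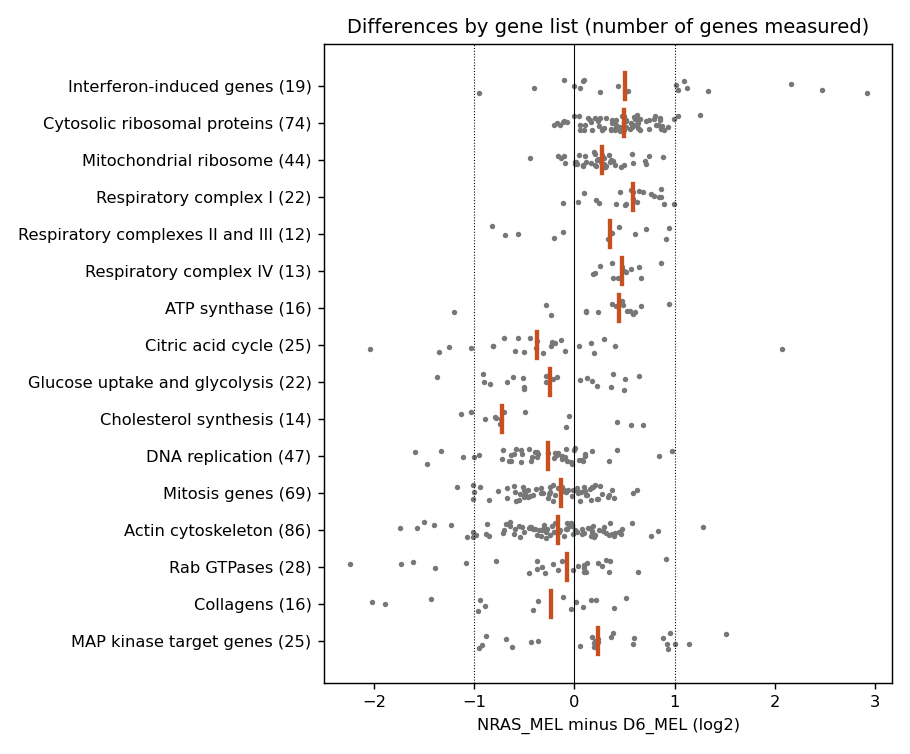
NRAS_MEL minus D6_MEL (log2, x axis) for 16 gene lists, 1 point per gene and an orange bar at each list's median, with the number of genes measured in brackets; dotted lines mark 2-fold. Complex I (0.59), interferon-induced genes (0.51) and cytosolic ribosomal proteins (0.49) have the highest medians drawn, and cholesterol synthesis (-0.72) and the citric acid cycle (-0.37) the lowest.

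Enzymes that feed the respiratory chain lay on the other side. Of 25 genes of the citric acid cycle and its entry points 19 were below 0, with a median of -0.37, 4 at least 2-fold lower and 1 higher. Pcx, pyruvate carboxylase, stood at -1.97 in NRAS_MEL and 0.07 in D6_MEL. Dld, the shared dehydrogenase of the 2-oxoacid complexes, stood at -1.85 and -0.49. Got2, the mitochondrial aspartate aminotransferase, stood at -3.68 and -2.43, with probes at -2.31 and -0.19, and Glud1, glutamate dehydrogenase, at -1.92 and -0.89, with probes at -1.72 and -0.34. NRAS_MEL was the lowest of the 11 arrays in all 4. The higher gene was Idh1, the cytosolic isocitrate dehydrogenase that makes NADPH, at 2.79 in NRAS_MEL, the highest array, and 0.73 in D6_MEL. Its mitochondrial relative Idh2 stood at -1.14 and -1.19.

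Glycolysis and glucose uptake had a median of -0.25 over 22 genes and 1 gene 2-fold lower (4.55%, near the 4.39% of all genes). It was the glucose transporter Slc2a1, at -2.54 and -1.17. Tpi1 differed by -0.91, Pgk1 by -0.90 and Pgam1 by -0.84, while Hk1, a hexokinase, stood at 1.15 and 0.50. Against the array labelled Heart instead, the list's median was 0.00, and over the 3 genes with 2 or more probes it was 0.36. With the 2 table blocks described at the end left out, 0 of 17 were 2-fold lower. Cholesterol synthesis and its control had the lowest median of the lists drawn, -0.72 over 14 genes, 11 of them below 0. At least 2-fold lower were 2 (14.3%, beside 4.39% of all genes). Over the 4 genes with 2 or more probes the median was -0.29. Dhcr7, an enzyme of the final steps, stood at -1.96 and -0.83, and Sqle, squalene epoxidase, at -0.31 and 0.72. The regulators Scap and Mbtps1 both differed by -0.79, whereas Srebf1, the factor they activate, differed by 0.69. Beside them Scd2, a fatty acid desaturase, stood at -1.49 in NRAS_MEL and 0.66 in D6_MEL, and Acsl4, an acyl-CoA ligase for arachidonate, at 1.41 and 2.82, with probes at -2.27 and -0.54. The efflux pump Abca1 went the other way, at 0.82 and -1.0.

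Ribonucleotide reductase was lower in all 3 subunits. Rrm1, the large subunit, stood at -0.91 in NRAS_MEL and 0.56 in D6_MEL. Rrm2, the small subunit of S phase, stood at -1.13 and 0.46, with 3 probes from -2.27 to -0.53, and Rrm2b, the p53-induced small subunit, at -0.29 and 0.80. D6_MEL was the highest of the 11 arrays for Rrm1 and Rrm2. Adss, of AMP synthesis, stood at -2.10 and -0.10, while the uridine phosphorylase Upp1 stood at 2.06 and 0.79. In the wider replication list 4 of 47 genes were 2-fold lower (8.51%, beside 4.39% of all genes) and 0 higher, with a median of -0.26. The 4 were the 2 S-phase reductase subunits, Rpa1 and Mcm3, a helicase subunit, at -0.89 and 0.22. Against the array labelled Heart instead, that median was -0.03. Mcm10 and Pole2 lay the other way, at 0.98 and 0.85. Clspn, the checkpoint adaptor claspin, stood at -0.51 and 1.48, and Hells, a chromatin remodeller of dividing cells, at -1.47 and 0.43.

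Mitosis genes had a median of -0.13 over 69, and 25 of them lay above 0, against 51.5% of all genes. Against the array labelled Heart instead, that median was -0.0005. None was 2-fold higher, and 3 were at least 2-fold lower (4.35%, near the 4.39% of all genes). These were Nusap1, a spindle protein, at -1.22 and -0.05, Prc1, the midzone bundler, at -0.16 and 0.85, and the tubulin Tubb5, with 3 probes from -1.25 to -0.79. Spag5 at -0.82 and 1.16 and the centromere protein Cenpi at -0.33 and 1.54 lay further down. The G1 regulators were mixed, with Myc higher, Ccni and Tfdp1 lower, and Cdk4 at 0.79 and -0.17. In DNA repair and the p53 pathway, Rad18, a ubiquitin ligase of damage bypass, stood at -0.24 and 1.56 and Fanca at -0.47 and 0.78. Ercc2, a repair helicase, stood at 0.38 and -0.69, and Gadd45g, a stress gene, at 0.87 and -0.30. Eme1, an endonuclease subunit, stood at 1.76 in NRAS_MEL, the highest array, and -0.26 in D6_MEL.

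Serine, glycine and asparagine synthesis had a median of -0.36 over 21 genes, or 0.07 over the 8 with 2 or more probes. Mthfd2, the mitochondrial folate enzyme, stood at 1.14 in NRAS_MEL and 2.33 in D6_MEL, and Asns, asparagine synthetase, at 1.77 and 2.85. Both lay above the reference on both arrays. Aars, the alanyl-tRNA synthetase, stood at -0.55 and 1.30, the 1 of 29 synthetases 2-fold apart. Of 61 translation factors 5 were 2-fold lower (8.2%, beside 4.39% of all genes). Among them were Eif2s3x, a subunit of the initiator complex, at -0.68 and 0.97, and Eif4g2, a scaffold, with 5 probes from -1.96 to -0.54. Tufm, the mitochondrial elongation factor, was the higher one, at 0.34 and -0.69.

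Extracellular matrix genes went both ways. None of 16 collagens was 2-fold higher, and 3 were 2-fold lower (18.8%, beside 4.39% of all genes). Col5a2, of fibrillar collagen, stood at 0.02 in NRAS_MEL and 2.04 in D6_MEL, Col6a1 at -1.63 and 0.26, and Col4a2, of basement membrane, at -0.23 and 1.20. D6_MEL was the highest of the 11 arrays for all 3. The main chains Col1a1, Col3a1 and Col1a2 differed by -0.42, -0.36 and -0.11. Of 39 other matrix proteins 5 were higher and 5 lower (12.8% each, beside 2.43% and 4.39% of all genes). The higher ones were Mgp, an inhibitor of calcification, at 0.35 and -2.72, Ecm1 at 2.34 and -0.24, the proteoglycan Bgn at -1.28 and -3.50, Pcolce, an enhancer of procollagen cleavage, at -0.01 and -2.14, and tenascin C, Tnc, at -2.39 and -3.60. The lower ones were Ltbp1, which stores latent TGF-beta, at -0.81 and 1.01, P4ha2, a collagen hydroxylase, at -1.66 and -0.04, Sdc2, Nid1 and Agrn. Bgn, Mgp and Pcolce stood at 1.41, 2.16 and 1.42 in HRAS_MEL. They also stood above NRAS_MEL in 3T3, at 1.27, 1.03 and 0.92, and in VA_475, at 0.64, 1.39 and 0.10. In VA_MEF they stood at -3.85, -3.82 and -2.14.

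Among 50 matrix enzymes and their inhibitors 2 were higher (4.0%, beside 2.43% of all genes) and 3 lower (6.0%, beside 4.39%). Pcsk6, a convertase that activates growth factor precursors, had the lowest difference of all genes, at -2.92 in NRAS_MEL and 0.45 in D6_MEL. It stood at -3.06 in HRAS_MEL, -2.17 in 3T3 and -3.43 in VA_475. Adam10, a sheddase that also cuts Notch, stood at -0.55 and 1.96. Its relative Adam17 differed by -0.98, and Ncstn, a subunit of the gamma-secretase that cuts Notch next, stood at -0.24 and 0.95. Smo, the Hedgehog transducer, at -0.97 and 0.35, and Heyl, a Notch target, at -0.34 and 0.72, were 2-fold lower too. That made 4 of 24 genes of these pathways 2-fold lower (16.7%, beside 4.39% of all genes) and 0 higher, though the list's median was 0.08. Without the 2 table blocks described at the end the lower ones were 2 of 21. In TGF-beta signalling the coreceptor Tgfbr3 stood at -1.97 and -0.00, Id2 and Ltbp1 are given above, and Skil, an inhibitor of SMADs, stood at 1.01 and -0.33. In the Wnt list Apcdd1, an inhibitor at the receptor, stood at 0.62 and -1.83 and the ligand Wnt2 at 0.56 and -0.96; the array labelled Heart had Wnt2 at 0.69. Mcc at -0.38 and 1.83 and beta-catenin, Ctnnb1, at -1.28 and -0.24 were lower.

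Of 71 integrins, cadherins and adhesion receptors 3 were 2-fold lower (4.23%) and 1 higher (1.41%), near the shares of all genes, 4.39% and 2.43%. Mcam, the melanoma cell adhesion molecule, stood at -0.05 in NRAS_MEL and 2.27 in D6_MEL. It stood at -1.82 in HRAS_MEL, -1.25 in 3T3 and -1.61 in VA_475. Itgb1, the shared beta chain of many integrins, stood at 0.12 and 1.15, with probes at -1.51 and -0.55, and Tspan9, a tetraspanin, at -0.09 and -2.04. Of 23 guidance genes 4 were 2-fold lower (17.4%) and 0 higher: the semaphorin receptors Plxnb2 and Nrp1, the ligand Sema3c, with probes at -1.21 and -1.07, and the netrin receptor Unc5c. Plxnb2 is uncertain, since its probes gave -2.66 and -0.00. Among growth factors and their receptors Fgfr1, a receptor kinase, stood at 0.38 and -0.98 and Igfbp5 at -1.29 and -2.33. Gfra1, the GDNF coreceptor, stood at 0.72 in NRAS_MEL and 2.27 in D6_MEL. Of the 10 neural crest and glia genes Mcam and Gfra1 were the 2 at least 2-fold apart. Erbb3 and Nes stood above 2 on both arrays, at 2.02 and 2.43, and 2.89 and 2.76, but the list's median level was 0.15 in NRAS_MEL and 1.02 in D6_MEL. Its median difference was -0.11, and 0.32 against the array labelled Heart instead.

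Of 86 actin genes 8 were 2-fold lower (9.3%, beside 4.39% of all genes) and 1 higher, with a median of -0.17. Myh10, a non-muscle myosin, stood at -2.86 in NRAS_MEL and -1.12 in D6_MEL, Actr3, of the Arp complex that branches actin, at -0.74 and 0.76, and the crosslinker Actn4 at -0.00 and 1.40. Add3, Twf1, Pls3, Myl9 and the cytoplasmic actin Actg1 made up the rest. Myl9 was 0.19 higher in NRAS_MEL than in the array labelled Heart. The higher gene was Mylk, the kinase of myosin light chain, at -2.64 and -3.92. LIM domain genes held both the largest difference of all and some of the lowest. Crip2 stood at 0.04 and -4.54 and its relative Crip1 at -1.21 and -2.78, while Pdlim5 stood at -1.65 and 0.65 and Lims2 at -0.94 and 1.10. In HRAS_MEL Crip2 stood at 0.58 and Crip1 at -0.10. In the array labelled Melan A they stood at 3.38 and -0.10, and in 3T3 at -3.12 and -2.98. The S100 proteins S100a6, at 4.08 in NRAS_MEL and 2.53 in D6_MEL, and S100a13, at 1.51 and 0.38, had their highest array in NRAS_MEL.

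Of 28 Rab GTPases, which direct vesicles, 5 were 2-fold lower (17.9%, beside 4.39% of all genes) and 0 higher, yet 13 lay above 0 and the median was -0.07. Without the 2 table blocks described at the end, 3 of 24 were lower. Rab6a, of the Golgi, stood at -2.57 in NRAS_MEL and -0.33 in D6_MEL. Rab7, which takes cargo to lysosomes and serves melanosomes, stood at -1.16 and 0.56, Rab1b at -0.01 and 1.60 and Rab10 at -0.92 and 0.46. Rab18 had 3 probes from -1.67 to -0.20. Rab7 was the 1 of 19 melanosome and pigment genes 2-fold apart, with Rab38 at 0.04 and 0.06 and Rab27a at -0.50 and -0.59. The SNARE Vamp3 stood at 0.38 and 2.50 and Stx7 at -0.48 and 0.96. Of 135 genes of coats, sorting and the Golgi 7 were lower (5.19%, near the 4.39% of all genes) and 1 higher. Vps35, of the retromer, stood at -1.31 and 0.11, the clathrin adaptor Ap2b1 at -0.69 and 0.57, and Sar1a, which starts COPII coats, had 3 probes from -1.54 to -0.79. The higher one was Exoc8, of the exocyst, at 0.34 and -1.55.

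Lysosomal genes had a median of -0.09 over 58, and of -0.56 against the array labelled Heart instead. At least 2-fold lower were 2, Arsb and Ctsb (3.45%), and 1 was higher, Laptm5, at -0.95 and -3.71 (1.72%). Arsb is given above, and the protease Ctsb stood at -1.95 in NRAS_MEL and -0.58 in D6_MEL. The chloride transporter Clcn7, of lysosomes but counted with the ion channels, stood at -1.23 and 0.73. Of 133 ubiquitin genes 6 were lower (4.51%) and 2 higher (1.5%), near the 4.39% and 2.43% of all genes. Usp22, a deubiquitinase of histones, stood at -2.01 and 0.16, Nedd4, a ligase, at -0.59 and 1.24 with 3 probes from -2.90 to -0.31, and Uba3, of the NEDD8 enzyme, at -0.21 and 1.23. Usp36, of the nucleolus, was higher, at 2.82 and 1.34. RNA-binding proteins had 6 of 75 lower (8.0%, beside 4.39% of all genes) and 0 higher. The lowest difference was in Cnot1, the scaffold of the deadenylase, at -0.37 and 1.54. Hnrnpa1 had 3 probes from -1.30 to -0.88 and D6_MEL as its highest array. Of the splicing factors Srsf3 stood at -1.67 and -0.01, with 3 probes from -2.54 to -0.71.

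Among regulators of transcription the shares of higher genes were near the 2.43% of all genes: 3 of 78 in the RNA polymerase II and Mediator list, 3 of 135 chromatin regulators and 2 of 79 developmental factors. With the 2 table blocks described at the end left out, 0 of 124 chromatin regulators were 2-fold higher and 4 were lower. Cdk8, the Mediator kinase, stood at 1.05 in NRAS_MEL and -0.73 in D6_MEL, beside 2.55 in HRAS_MEL, and Supt5, an elongation factor, at 0.43 and -0.66. Ell, another elongation factor, stood at -0.58 and -2.44, but at 0.11 in the array labelled Heart. Hoxb8, a homeobox factor, stood at 2.35 and -0.18, with NRAS_MEL as the highest array, and Gata6 at -0.45 and -1.53, with 3 probes from 0.21 to 2.49. Cbx7, a Polycomb reader, stood at 1.44 and -0.27, but its probes gave 0.30 and 3.12, and the probes of Setd1b gave 0.25 and 2.81. Setd5 at -1.21 and 0.54, Chd6 at -1.58 and -0.08 and the demethylase Kdm5c at 0.60 and 1.67 were lower. Lrp1, an endocytic receptor, had 3 probes from 0.79 to 3.31, and Nrk, a kinase of the placenta, probes at 0.63 and 4.17, the widest range named here.

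Imprinted genes split by gene. Mest stood at -0.26 in NRAS_MEL and 1.78 in D6_MEL, beside -5.31 in HRAS_MEL, -3.69 in 3T3 and -6.33 in VA_475. Plagl1, a growth-restraining zinc finger factor, stood at -4.92 and -3.55, and Gatm, of creatine synthesis, at -1.26 and 0.80. Igf2 is given above, and Phlda2, a brake on placental growth, stood at 2.32 and 1.14. H19, the noncoding neighbour of Igf2, differed by 0.18 and the paternally expressed Peg3 and Dlk1 by 0.41 and 0.36. The list as a whole, 24 genes, had 2 higher (8.33%, beside 2.43% of all genes), 3 lower (12.5%, beside 4.39%) and a median of 0.29.

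Markers of other cell types were read for the genes above. Of 19 haemoglobin and haem genes 3 were 2-fold higher (15.8%, beside 2.43% of all genes). They were Tmem14c, a transporter of haem precursors, at 0.98 and -2.70, Hba-x, the embryonic alpha globin, at -0.26 and -3.16, and Hbb-y. D6_MEL was the lowest of the 11 arrays for all 3. Hbb-y was only 0.025 higher in NRAS_MEL than in the array labelled Heart. The adult chain Hbb-b1 stood at -8.08 in NRAS_MEL and -7.62 in D6_MEL, and globin chains can share probe signal. Of 15 macrophage and leukocyte markers 2 were 2-fold higher (13.3%, beside 2.43% of all genes). They were the lysosomal Laptm5 at -0.95 and -3.71 and the complement chain C1qc at -0.96 and -2.35. Its partners C1qa and C1qb differed by -0.16 and 0.07 and Fcgr3 by 0.48, and the list's median was 0.18. All 5 endothelial markers lay between 0.17 and 0.37, and 0 of 6 muscle and 0 of 8 neuronal markers were 2-fold apart. Of 11 fibroblast markers Col5a2 and Col6a1 were 2-fold lower (18.2%, beside 4.39% of all genes). Of 18 epithelial markers Krt7 was 2-fold lower, at -3.82 and -2.29, and in the array labelled Heart it stood at -4.83, 1.02 below NRAS_MEL. The part of admixed cells in any difference was not tested.

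Probes 2-fold lower were not spread evenly along the deposited table. The probes, in table order, were divided into 20 blocks. In blocks 2 and 4, 10.2% and 10.3% of probes were 2-fold lower in NRAS_MEL, against 3.03% to 6.28% in the other 18. Set against the array labelled Heart, NRAS_MEL had 10.1% and 10.2% lower in these blocks and 3.04% to 8.14% in the others. The shares higher than D6_MEL were 3.56% and 2.91% there and 1.05% to 3.81% elsewhere. Without these blocks 147 genes were higher and 264 lower of the 6414 genes left. The place of a probe on the slide is not in the values used here, so the part of array position in the lower genes was not tested.

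**Figure D5:**
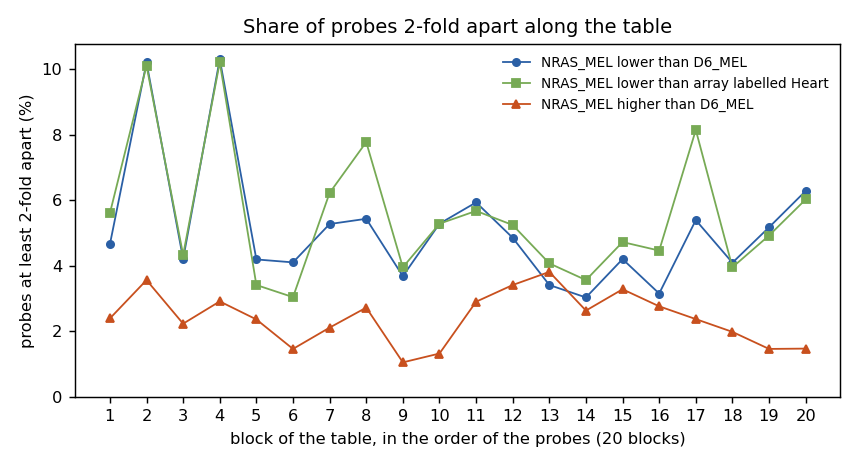
Share of probes at least 2-fold apart (%, y axis) in each of 20 blocks of the value table in its own order (x axis), for NRAS_MEL lower than D6_MEL (blue), NRAS_MEL lower than the array labelled Heart (green) and NRAS_MEL higher than D6_MEL (orange). Blocks 2 and 4 reach 10.2% and 10.3% in the blue line, and the orange line stays between 1.05% and 3.81%.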

How the data were processed

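The authors deposited 1 log ratio of both dye channels per probe, read here as log2, for 15247 probes. NRAS_MEL had a value for 15179 and D6_MEL for 15198, and 15148 had both. Per the labels, RNA was extracted with Trizol and dyes were incorporated directly during reverse transcription; for log base, background correction and normalization the entry is: not given in the sources used here. The deposited medians were 0.03 and -0.03. Intensities were not used here, so how far a ratio stood above background is unknown; having 1 array a side limits the precision.

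Signs were turned, arrays were median-centred, and probes with 1 gene symbol (9600; 214 had several and 5433 none listed) were averaged per gene over probes with both values. Of the 9600, 9492 matched a RefSeq gene table of GRCm38.p6 by gene number, with 0 symbols changed. Genes at least 2-fold apart were counted, with no test. Eligible for naming, with a part printed, were ranks 11 to 40 on each side, genes 2-fold apart in every probe, the Ras family, the members 2-fold apart or 4 largest differences of each list, and the 10 highest and lowest genes as members of lists; Oas1a, Igtp and other members under 2-fold were added after their values were seen. Gene lists and members were chosen with earlier results of these data known. Alternatives changed centring, scaling, probe choice, log base, threshold, sign and the array compared. Python 3.11.15 with numpy 2.4.6 and pandas 2.3.3 was used, and the scripts were tested on simulated data.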

Additional observations from a re-analysis of the deposited data

How the results depend on the processing

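The numbers of genes higher and lower in NRAS_MEL, 172 and 310, were 146 and 371 without centring, 184 and 298 after quantile normalization, 174 and 309 with both arrays scaled to 1 SD, 172 and 317 with the median over probes and 192 and 412 with the first probe. They moved to 13 and 74 in genes with 2 or more probes, to 532 and 682 if the logarithm is natural, to 785 and 915 at 1.5-fold, to 46 and 77 at 3-fold and to 310 and 172 with the ratio read as own RNA over reference, which turns every sign of a gene or list. Against the array labelled Heart instead of D6_MEL, 280 were higher and 369 lower. Of 260 2-fold genes eligible for naming with a value there, 179 were still 2-fold apart in the same direction and 8 changed sign: Ell (-0.69), Nop53 (-0.18), Wnt2 (-0.13), Mt1 (-0.19), Myl9 (0.19), Slc44a4 (0.0008), Prex2 (0.35) and Krt7 (1.02). The cause was not tested. The cholesterol synthesis median became -0.29 over the 4 genes with 2 or more probes. Leaving out table blocks 2 and 4, chosen after seeing the data, gave 147 and 264. Of 21 lists with a median over 0.2 in size, 21 kept their sign under each scaling, centring and probe median. The first probe and leaving out the blocks each kept 20, the array labelled Heart 19, and genes with 2 or more probes 12 of 16. A change of log base multiplies every difference by the same factor and cannot turn a sign. No replicate could be left out. No paired analysis was possible because each group has 1 array and the groups share fewer than 2 replicate numbers.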
